A study of Mus musculus with 30 samples.

Results

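The core spliceosome genes described here are 45 genes that code for the protein subunits and helper enzymes of the major spliceosome, followed through neuronal differentiation of mouse embryonic stem cells. They were chosen by name, from what their products are known to do, but with earlier results of these data known. They comprise 12 genes of the U2 snRNP and its SF3a and SF3b complexes, 4 genes of the U1 snRNP, 7 Sm ring genes, 11 genes of the U4/U6.U5 tri-snRNP, 5 genes of or near the Prp19 complex and 6 genes that act late in the reaction. All 45 were among the 54393 genes of the expression table, and 44 were among the 13938 genes with enough spliced reads to be tested. The other member, Sf3b5, had RPKM values but no spliced reads to test.

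The spliceosome removes introns from pre-mRNA. U1 snRNP binds the 5′ splice site, U2 snRNP binds the branch point, and the U4/U6.U5 tri-snRNP then joins, after which RNA helicases remodel the complex and the Prp19 complex holds the catalytic RNA in place. The Sm proteins form the ring on which the U1, U2, U4 and U5 snRNAs are assembled. Puf60 helps U2AF recognise the 3′ splice site and recruit U2 snRNP, and Rbm38 is an RNA-binding protein with roles in mRNA stability and splicing.

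Polyadenylated RNA was sequenced from CGR8 mouse embryonic stem cells (ESC), from embryoid bodies at day 8 of a retinoic acid protocol (EB8, the neural progenitor stage) and from glutamatergic neurons 7 days after that stage (DIV7). Each stage was sampled in 4 lines edited with CRISPR-Cas9 and in their parent. The 4 edited lines were Puf60.mEx5.HOM, with exon 5 of Puf60 removed on both alleles, Puf60.pEx5.HOM, with exon 5 made constitutive on both alleles, Puf60.pEx5.HET, with the same change on 1 allele, and Rbm38KO, which lacks Rbm38. The parent, WTprtl, was unedited and passed through the same protocol. Each of the 15 groups had 2 libraries, A and B, 30 in all. The design text mentions independent clones without the labels tying a library to a clone. The p-values therefore cover the spread among these libraries and no more, and that spread may be technical. Every comparison of an edited line shares its WTprtl libraries with the other lines. The labels call the edited lines clonal and do not say whether libraries A and B of a line come from 1 clone.

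The libraries held 23204150 to 38571969 reads across exon-exon junctions (spliced reads). Rbm38 had 0 spliced reads in all 6 Rbm38KO libraries, which allows a level of up to 0.123 CPM, against 87.4 and 83.4 CPM in WTprtl ESC, 41.7 and 37.5 in WTprtl EB8 and 11.1 and 8.54 in WTprtl DIV7. Puf60 exon 5 was included in 8.76, 12.6 and 11.4% of transcripts at ESC, EB8 and DIV7 in Puf60.mEx5.HOM and in 98.7, 95.3 and 94% in Puf60.pEx5.HOM, against 21.6, 26.5 and 43.4% in WTprtl. In Puf60.mEx5.HOM inclusion was thus lower than in WTprtl but not 0, and the 6 libraries had 0 to 6 reads over the junction into the exon, 133 to 314 over the junction out of it and 540 to 1006 that skipped it. The WTprtl libraries had 257 to 496 reads into the exon and 392 to 573 out of it. Spliced reads of Puf60 as a whole were also lower in Puf60.mEx5.HOM. That line had 222.2 and 213.1 CPM at ESC, 230.1 and 252.8 at EB8 and 165.8 and 180 at DIV7. WTprtl had 344.2 and 328.1, 334.6 and 318.5, and 242.6 and 263.7 CPM at the same stages. The part of this lower Puf60 level in the members' changes was not tested. Puf60.mEx5.HOM had 0 reads from Y-linked genes, against 19748 to 28493 in the other lines. In WTprtl, all 12 pluripotency markers fell between ESC and EB8, and 14 of 15 neuron markers rose at each step. The summed neuron markers were 5460 to 6280 CPM at DIV7, against 1780 to 2000 CPM at EB8. At DIV7 against EB8, 5 of 7 astrocyte markers and 5 of 10 fibroblast or muscle markers rose, where 37.4% of all genes rose. The astrocyte sums were 1200 to 1250 CPM at DIV7, against 118 to 127 CPM at EB8. The fibroblast or muscle sums were uneven between libraries, at 645 and 2130 CPM at DIV7. They were 169 to 306 CPM at EB8 and 307 to 449 CPM at ESC.

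Among the members, the authors' RPKM values, which are scaled to gene length, were highest for some genes of the Sm ring and the U1 snRNP. Averaged over the 15 groups, the level was 255 RPKM for Snrpb, which codes for SmB/B′, 195 for Snrpe (SmE), 193 for Snrnp70 (U1-70K), 177 for Snrpc (U1-C) and 163 for Snrpd1 (SmD1). The lowest averages were 12.2 RPKM for Cdc40 (the second-step factor PRP17), 14.3 for Prpf39 (a U1-associated protein) and 14.9 for Prpf4 (a U4/U6 protein). Snrpb thus stood at 467.82, 246.33 and 93.17 RPKM in WTprtl at ESC, EB8 and DIV7, while Prpf39 stood at 12.87, 14.66 and 13.33. Sf3b5, a small subunit of SF3b, had 46.7, 20.8 and 11.8 RPKM at the same stages. The deposited table holds a single RPKM per group, so these levels have no replicate spread. Several Sm genes have intronless copies elsewhere in the genome, and how reads shared with such copies were assigned is not given in the sources used here, so the Sm levels are uncertain to that extent.

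In WTprtl, messages of the core spliceosome were lower in EB8 than in ESC across nearly the whole list. Of the 44 members tested, 37 (84.1%) fell and 0 rose at an adjusted p under 0.05 (limma with Benjamini-Hochberg adjustment over all genes), where 39.2% of all genes fell and 39.4% rose. The median change was -0.70 on the log2 scale for the members and 0.03 for all genes. Both EB8 libraries lay below both ESC libraries for 42 of 44 members, against 44.4% of all genes. At least a 2-fold fall was called for 11 members, against 18.2% of all genes. The count depended on how libraries were scaled. With CPM on the total of spliced reads, 5 members rose and 21 fell, and the median over all genes moved to 0.42; with quantile normalization, 1 rose and 24 fell. Relative to the median of all genes, the members' median was -0.73, -0.64 and -0.26 under the main, total and quantile scalings. The 19 members that fell under all 3 scalings (43.2% of those tested, against 3341 of 13938 genes) were Prpf8, Aqr, Prpf3, Snrnp200, Dhx16, Cdc5l, Prpf4, Snrpd2, Eftud2, Snrpa1, Bcas2, Ddx46, Dhx8, Snrnp40, Sf3a2, Sf3a3, Snrpc, Sf3b4 and Sf3a1. In bulk RNA, fewer cells of a type and less RNA per cell cannot be told apart.

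The lowest values of this step belonged to the tri-snRNP and the catalytic centre, and each of the next 6 genes fell under all 3 scalings. Prpf8, the scaffold of the catalytic core, had 684.8 and 720.1 CPM in EB8, against 2024 and 1921 CPM in ESC. The change was -1.49 ± 0.12 on the log2 scale (SE, adjusted p = 1.95e-10), or 2.81-fold lower in EB8. Snrnp200 (BRR2, the helicase that unwinds U4 from U6) had 333.5 and 354.9 CPM in EB8, against 918.2 and 875.7 CPM in ESC (log2 change -1.38 ± 0.11, adjusted p = 7.64e-11). The helicase and its scaffold were thus both clearly separated between the stages. Prpf3, a U4/U6 protein, had 70.45 and 65.43 CPM in EB8, against 181.3 and 187.2 in ESC (-1.43 ± 0.10, adjusted p = 1.71e-11). Aqr, an intron-binding helicase, had 137.3 and 144.7 CPM in EB8, against 388.9 and 378.9 in ESC (-1.44 ± 0.07, adjusted p = 1.94e-14). Cdc5l, a core Prp19 complex protein, had 141.4 and 140.4 CPM in EB8, against 345.3 and 346.2 in ESC (-1.29 ± 0.07, adjusted p = 1.33e-13). Dhx16 (PRP2), the helicase that starts catalysis, had 132 and 129.5 CPM in EB8, against 330.1 and 331.2 in ESC (-1.33 ± 0.08, adjusted p = 6.43e-13). In none of these 6 genes did the stages overlap. In the authors' RPKM, Dhx16 was the lowest member of this step, at a log2 ratio of -2.19.

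By role, 10 of 11 tri-snRNP genes fell between ESC and EB8 under the main scaling (6 under all 3), with a median of -0.90 and a range from Prpf8 at -1.49 to Snrnp27 at -0.13 (adjusted p = 0.309). All 5 Prp19 complex genes fell (3 under all 3 scalings), with a median of -1.01 and a range from Aqr at -1.44 to Prpf19 at -0.56. Prpf19 itself, the ubiquitin ligase that names the complex, was at -0.07 and 0.04 under the total and quantile scalings. In the U2 snRNP, 9 of 11 fell (6 under all 3), from Snrpa1 (the U2 A′ protein) at -1.06 to Sf3b2 at -0.09. The late-acting group had 4 of 6 lower (2 under all 3), from Dhx16 to Cdc40 at 0.02, the U1 snRNP 3 of 4 (1 under all 3), from Snrpc at -0.78 to Prpf39 at 0.16, and the Sm ring 6 of 7 (1 under all 3), from Snrpd2 at -1.11 to Snrpf at -0.37.

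The smallest called changes depended on the scaling. Dhx38 (PRP16), a second-step helicase, had 290 and 279.1 CPM in EB8, against 381.7 and 356.7 CPM in ESC (-0.37, adjusted p = 0.00248). It was at 0.11 with total scaling and 0.18 with quantile normalization. Sf3b1, the largest SF3b subunit, had 357.9 and 377.1 CPM in EB8, against 538.7 and 458.4 in ESC (-0.43, adjusted p = 2.71e-05), and stood at 0.05 and 0.17 under the other scalings. Snrpb2 (the U2 B″ protein) at -0.47 and Prpf38a at -0.46 were at 0.01 and 0.02 with total scaling. So for these 4 genes the stages did not overlap in the main values, but the direction changed sign with the scaling. Larger changes depended on it too. Snrnp70 (-0.54) and Prpf19 (-0.56) were at 0.15 and 0.04 with quantile normalization. Snrpa (-0.48) was at 0.00 with total scaling and 0.01 with quantile normalization. Sf3b3 kept its sign, but moved from -0.88 to -0.07 with quantile normalization (adjusted p = 0.42). The 7 members not called were Snrpf, Sf3b6, Slu7, Snrnp27, Sf3b2, Cdc40 and Prpf39, of which Slu7, Snrnp27, Sf3b2, Cdc40 and Prpf39 were called higher in EB8 with total scaling. Sf3b2, an SF3b subunit, had 771.4 and 738.3 CPM in EB8, against 803.4 and 799.4 in ESC. Cdc40 had 39.61 and 37.5 CPM in EB8, against 40.24 and 35.85 in ESC, and these overlapped.

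**Figure D1:**
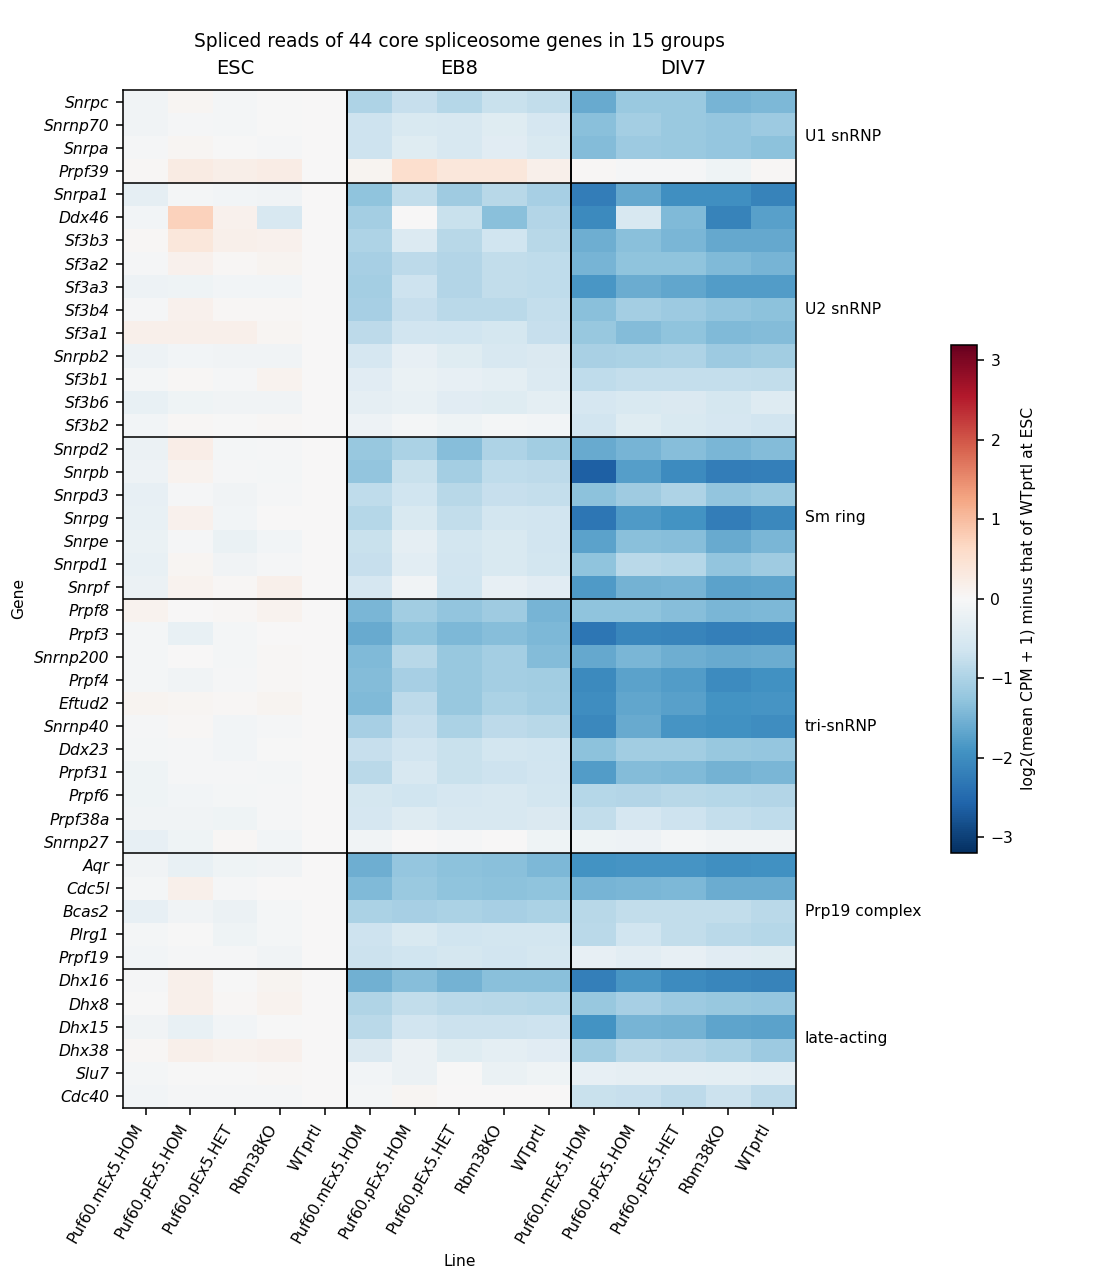
Each row is 1 of the 44 tested genes, in blocks by role, and each column is 1 of the 15 groups; the colour is the log2 of the mean CPM + 1 of 2 libraries minus that of WTprtl at ESC. With this scaling nearly all rows are lower at EB8 and lower again at DIV7 in all 5 lines (with total scaling 5 members rise at EB8 in WTprtl), while Ddx46 stands out in Puf60.pEx5.HOM.

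Between EB8 and DIV7 the list was lower again, but other members led. In WTprtl 36 of 44 (81.8%) fell and 0 rose, where 34.2% of all genes fell and 37.4% rose, and the same 36 fell under all 3 scalings (81.8% of members, against 4732 of 13938 genes). The median change was -0.63 for the members and 0.02 for all genes. Both DIV7 libraries lay below both EB8 libraries for 39 members, against 41.6% of all genes. At least a 2-fold fall was called for 6 members, against 12.7% of all genes. As a share of all spliced reads, the members took 1.22 to 1.31% in the ESC libraries of the 5 lines, 0.889 to 1.12% at EB8 and 0.592 to 0.675% at DIV7. Cell cycle genes moved with both steps: in WTprtl 24 of 26 such genes fell at EB8 and 26 of 26 at DIV7, with sums of 12200 to 12600, 4240 to 4960 and 976 to 1190 CPM at ESC, EB8 and DIV7, and their part in the result was not tested.

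Of the 6 members with the lowest values in the second step, 3 code for Sm ring proteins (Snrpg, Snrpb and Snrpf), and the others were Snrnp40, Snrpa1 and Dhx15. Snrpg (SmG) had 30.07 and 27.23 CPM at DIV7, against 90.12 and 67.94 CPM at EB8 (log2 change -1.42 ± 0.21, adjusted p = 6.76e-06), or 2.68-fold lower. Snrpb had 164.4 and 141.4 CPM at DIV7, against 424.6 and 358.3 at EB8 (-1.35 ± 0.11, adjusted p = 3.1e-10). Snrpf (SmF) had 32.86 and 29.21 CPM at DIV7, against 86.68 and 72.73 at EB8 (-1.33 ± 0.17, adjusted p = 7.96e-07). The stages did not overlap in any of the 3 Sm genes, and Snrpf had not been called in the first step. Snrpa1 had 38.57 and 40.25 CPM at DIV7, against 92.14 and 77.4 at EB8 (-1.08 ± 0.14, adjusted p = 4.74e-07). Snrnp40, a U5 protein, had 58.93 and 62.51 CPM at DIV7, against 131.6 and 129.9 at EB8 (-1.09 ± 0.10, adjusted p = 2.29e-09). Dhx15 (PRP43), the helicase that takes the spent spliceosome apart, had 115.5 and 115 CPM at DIV7, against 254.6 and 224.5 at EB8 (-1.05 ± 0.10, adjusted p = 5.18e-09).

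Of the 6 genes lowest in the first step under the main scaling, Prpf8 and Snrnp200 were not called in the second. Prpf8 had 753 and 691.4 CPM at DIV7, against 684.8 and 720.1 at EB8 (0.04, adjusted p = 0.785), and the stages overlapped. Snrnp200 had 310.8 and 287.7 CPM at DIV7, against 333.5 and 354.9 at EB8 (-0.20, adjusted p = 0.0942). Prpf8 and Snrnp200 thus showed no called change under the main scaling after EB8, although Snrnp200 was called lower under both other scalings. The other 4 of the 6 genes were called lower again, Dhx16 at -0.80 (adjusted p = 6.01e-09), Prpf3 at -0.74 (adjusted p = 9e-07), Aqr at -0.49 (adjusted p = 1.53e-06) and Cdc5l at -0.30 (adjusted p = 0.000444). Bcas2 (SPF27 of the Prp19 complex) had 83.43 and 92.42 CPM at DIV7, against 82.92 and 76.24 at EB8 (0.14, adjusted p = 0.101). Prpf19 had 378.9 and 410 CPM at DIV7, against 371.7 and 327.8 at EB8 (0.17, adjusted p = 0.0747). Neither gene was called under any of the 3 scalings. Snrnp27 (0.02), Sf3b6 (-0.09), Prpf39 (-0.13) and Snrpd2 (-0.27, adjusted p = 0.056) completed the 8 members not called. The 4 called genes with the smallest changes were Dhx8 (PRP22) at -0.32, Plrg1 at -0.32, Cdc5l at -0.30 and Slu7 at -0.21. Dhx8 was not called without WTprtl DIV7 library A (adjusted p = 0.0706), and Slu7 not without either EB8 library or DIV7 library A.

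By role, all 6 late-acting genes fell between EB8 and DIV7 (median -0.80, from Dhx15 at -1.05 to Slu7 at -0.21), as did 10 of 11 U2 genes (median -0.65, from Snrpa1 at -1.08 to Sf3b6 at -0.09). In the Sm ring 6 of 7 fell (median -0.84, from Snrpg to Snrpd2), in the tri-snRNP 8 of 11 (median -0.59, from Snrnp40 to Prpf8), and in the U1 snRNP 3 of 4 (median -0.64, from Snrpa at -0.82 to Prpf39). The Prp19 complex had 3 of 5 lower (median -0.30, from Aqr at -0.49 to Prpf19 at 0.17). The members counted here also fell under both other scalings. The authors' RPKM values in WTprtl were lower for 44 of 45 members at EB8 (median log2 ratio -0.69) and for 43 of 45 at DIV7 (median -0.67, lowest Snrpg at -1.54).

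**Figure D2:**
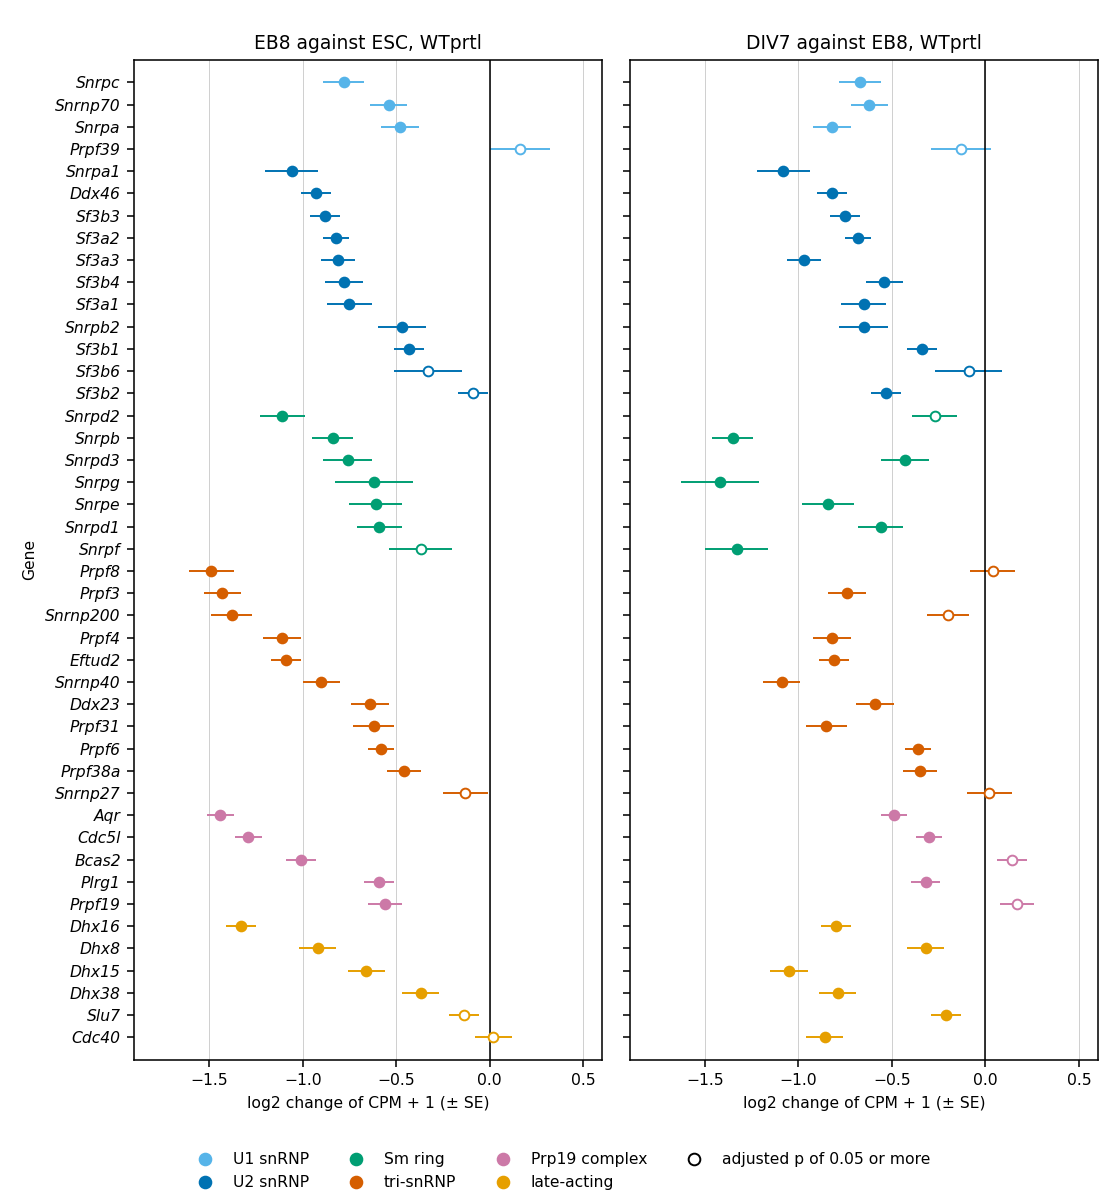
The log2 change of each tested member in WTprtl with its standard error, with EB8 against ESC on the left and DIV7 against EB8 on the right; filled points have an adjusted p under 0.05. The lowest points are Prpf8, Aqr and Prpf3 in the first step and Snrpg, Snrpb and Snrpf in the second.

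Genes that work beside the listed ones were read in the same way, against the 39.2% (EB8) and 34.2% (DIV7) of all genes that fell. In WTprtl at EB8 against ESC, 36 of 48 other spliceosome proteins fell and 3 rose (median -0.51), all 7 genes of the U6-binding LSm ring fell (median -0.81), and 13 of 15 genes that assemble Sm rings fell while 1 rose (median -1.05). Of 9 exon junction complex genes 6 fell and 1 rose, of 33 SR and hnRNP genes 16 fell and 4 rose (median -0.33), and of 8 minor spliceosome genes 4 fell and 3 rose (median -0.11). At DIV7 against EB8, 29 of 33 SR and hnRNP genes fell and 0 rose (median -0.78), as did 35 of 48 other spliceosome proteins with 1 higher, and 5 of 7 LSm genes with 0 higher. Summed minor spliceosome genes had 212 to 227 CPM at DIV7, against 239 to 254 at EB8. The sums were 1070 to 1200, against 1530 to 1640, for the exon junction complex and 753 to 804, against 936 to 996, for Sm assembly. All these list values are under the main scaling, on which the members' own count at EB8 depended.

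Each edited line passed through the same steps with a similar count of lower members. At EB8 against ESC, 37 of 44 fell in Puf60.mEx5.HOM (median -0.73; 39.3% of all genes fell), 35 in Puf60.pEx5.HOM (-0.61; 38.9%), 37 in Puf60.pEx5.HET (-0.75; 39.6%) and 39 in Rbm38KO (-0.65; 38.8%). In each of these lines 0 members rose, where 41.4, 39, 40 and 39.2% of all genes rose. Under total scaling the counts were 27 lower and 5 higher, 15 and 10, 22 and 6, and 18 and 5 in the same order, and under quantile normalization 32 and 2, 15 and 4, 28 and 3, and 22 and 3. At DIV7 against EB8, 36 fell in Puf60.mEx5.HOM (median -0.53; 33% of all genes), 36 in Puf60.pEx5.HOM (-0.56; 36%), 35 in Puf60.pEx5.HET (-0.51; 32.9%) and 39 in Rbm38KO (-0.68; 36.2%). In the same order 1, 2, 2 and 2 members rose, where 35.9, 39.3, 37.4 and 38.4% of all genes rose, and these members were Prpf19 and Bcas2. Prpf19 averaged 429 CPM at DIV7, against 322 CPM at EB8, in Puf60.mEx5.HOM (0.41, adjusted p = 0.000221). Its change was 0.29 in Puf60.pEx5.HOM, 0.32 in Puf60.pEx5.HET and 0.24 in Rbm38KO, each called. With total scaling the change of Prpf19 was called in Puf60.mEx5.HOM alone (0.24, adjusted p = 0.0123), and with quantile normalization in none. Bcas2 was called higher in 3 lines at 0.22 to 0.28, and in none of them under the other scalings.

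Snrpn, which is no member, codes for SmN, the Sm protein that takes the place of SmB/B′ in neurons, so it was read beside Snrpb. In WTprtl it had 1277 and 1490 CPM at DIV7, against 219.9 and 220.5 CPM at EB8 (2.64 ± 0.11, adjusted p = 3.52e-15), or 6.24-fold higher. Snrpb fell in the same libraries, as given above, so the pair moved in opposite directions. At EB8 against ESC, Snrpn was at -0.65 (adjusted p = 9.89e-06), but at -0.16 (adjusted p = 0.164) and -0.11 (adjusted p = 0.34) with total and quantile scaling. In Puf60.mEx5.HOM, Snrpn had 549.4 and 589.6 CPM at ESC, 603 and 611.2 at EB8 and 2356 and 2666 at DIV7, against 324.2 and 367.7, 219.9 and 220.5, and 1277 and 1490 CPM in WTprtl. The changes were 0.72, 1.46 and 0.86, with adjusted p of 0.00116, 7.63e-09 and 7.6e-05, and no library of that line overlapped WTprtl. The ESC call was lost without WTprtl library A (adjusted p = 0.0664) or Puf60.mEx5.HOM library B (adjusted p = 0.0505). In Puf60.pEx5.HOM, Snrpn had 180.3 and 147.4 CPM at EB8, against the WTprtl values above (-0.43, adjusted p = 0.0105). Its DIV7 libraries had 1975 and 1808 CPM (0.45, adjusted p = 0.00668). The first of these calls was lost without WTprtl library A or B or Puf60.pEx5.HOM library B (adjusted p = 0.0575, 0.0816 and 0.219), and the second without WTprtl library A (0.127) or Puf60.pEx5.HOM library A (0.0543). Snrpn shares its transcript with Snurf and is close in sequence to Snrpb, and how shared reads were divided is not given in the sources used here.

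**Figure D3:**
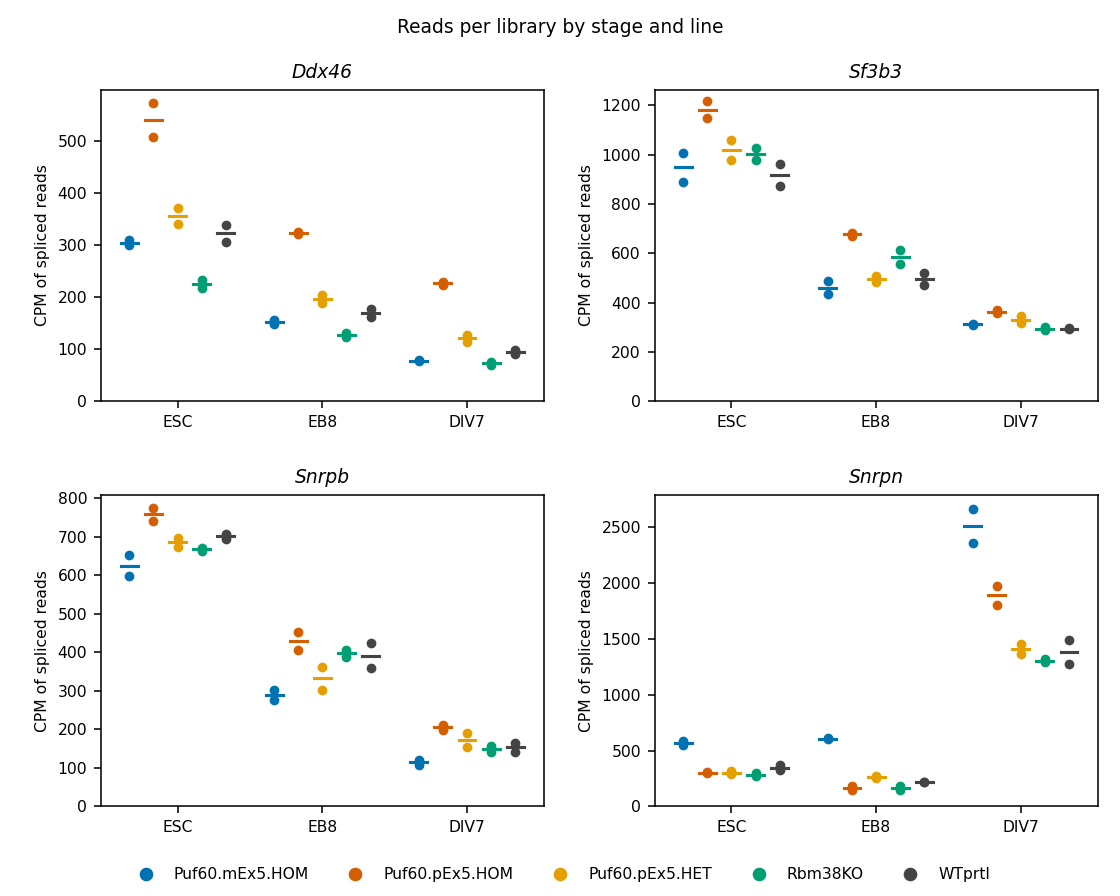
CPM of spliced reads per library for Ddx46, Sf3b3, Snrpb and Snrpn at the 3 stages; dots are libraries and bars are group means, with the edited lines left of WTprtl. Ddx46 is highest in Puf60.pEx5.HOM at each stage, and Snrpb falls at DIV7 while Snrpn is higher there.

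Against WTprtl at the same stage, the member that moved most was Ddx46. It codes for the mouse homolog of yeast Prp5, an ATPase that works on U2 snRNP when it binds the branch point, and lies at chr13:55635027-55681256 on the plus strand (GRCm38). In Puf60.pEx5.HOM it had 573.7 and 508.6 CPM at ESC, 320.6 and 325.8 at EB8 and 229.3 and 224.3 at DIV7. In WTprtl it had 339.4 and 306.4, 176.5 and 161.5, and 91.58 and 99.23 CPM at the same stages, so no library overlapped. The log2 change was 0.74, 0.93 and 1.24, each ± 0.08 (SE), with adjusted p of 3.33e-06, 2.34e-07 and 1.34e-08. That is 1.67-, 1.91- and 2.36-fold higher. All 20 introns of Ddx46 that had enough reads to compare had more spliced reads in Puf60.pEx5.HOM at each stage, with median ratios of 1.69, 1.88 and 2.38. The call held in every alternative tried, including without each library.

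In the other lines Ddx46 stood apart less or on the other side. In Puf60.pEx5.HET it had 371.4 and 341.3, 205.1 and 188.3, and 113.7 and 128.1 CPM at ESC, EB8 and DIV7, all above WTprtl, with changes of 0.14, 0.22 and 0.34. The DIV7 change was called (adjusted p = 0.0498) and was not called under 5 other settings or without WTprtl library A or Puf60.pEx5.HET library B. In Rbm38KO it had 233.5 and 217.8, 122.9 and 130.5, and 70.08 and 76.13 CPM, all below WTprtl. The changes were -0.51 (adjusted p = 0.00629), -0.41 (adjusted p = 0.0605) and -0.38 (adjusted p = 0.0376), with all 20 of the introns compared lower at each stage. The ESC call was lost without WTprtl library A (adjusted p = 0.157) or Rbm38KO library B (0.172), and the DIV7 call without 3 of the 4 libraries. In Puf60.mEx5.HOM it had 309.2 and 300.8, 156.6 and 148.5, and 78.33 and 77.14 CPM, with changes of -0.08, -0.15 and -0.29 (adjusted p = 0.0854 at DIV7, called at -0.35 and -0.36 with total and quantile scaling).

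The authors' deposited table gave Ddx46 log2 fold changes of 0.73, 0.93 and 1.18 in Puf60.pEx5.HOM against WTprtl at ESC, EB8 and DIV7, with FDR of 0.0854, 0.0218 and 0.00197. For Rbm38KO the authors' deposited table gave -0.53, -0.42 and -0.45 with an FDR of 1. In the authors' RPKM the gene spanned 12.9 in Rbm38KO at DIV7 to 104.6 in Puf60.pEx5.HOM at ESC. Genes around Ddx46 were looked at after its values were seen. Of 22 tested genes within 500 kb, 2 rose and 3 fell in Puf60.pEx5.HOM at ESC, 0 rose or fell at EB8, and 1 rose and 2 fell at DIV7. The neighbour Caml ends 2.62 kb before Ddx46 starts. In Rbm38KO it was lower at each stage, at -0.87, -0.93 and -0.84 (adjusted p = 0.00144, 0.000363 and 0.00112). In Puf60.pEx5.HOM it was at 0.12, -0.07 and 0.05, none called, so Caml did not follow Ddx46 there.

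Other members called in Puf60.pEx5.HOM had smaller changes. At ESC 2 rose and 1 fell, where 9.08% of all genes rose and 8.55% fell, and with total scaling 2 rose and 4 fell. Sf3b3 (SF3b130) rose beside Ddx46, with 1217 and 1148 CPM in Puf60.pEx5.HOM, against 961.4 and 871.9 CPM in WTprtl (0.37 ± 0.08, adjusted p = 0.00341). Aqr fell, with 337.1 and 318.6 CPM in Puf60.pEx5.HOM, against 388.9 and 378.9 in WTprtl (-0.23, adjusted p = 0.0239). Neither pair of groups overlapped, but the Sf3b3 call was lost without WTprtl library B (adjusted p = 0.0738) and the Aqr call without 3 of the 4 libraries. At EB8 4 rose and 0 fell, where 2.66% of all genes rose and 7.57% fell. Sf3b3 had 670.2 and 683.5 CPM in Puf60.pEx5.HOM, against 519.5 and 472.6 in WTprtl (0.45, adjusted p = 0.000914). Snrnp200 had 463.8 and 503.4 CPM in Puf60.pEx5.HOM, against 333.5 and 354.9 in WTprtl (0.49, adjusted p = 0.00379; 0.0669 without Puf60.pEx5.HOM library B). Prpf8 had 875.9 and 961.2 CPM in Puf60.pEx5.HOM, against 684.8 and 720.1 in WTprtl (0.39, adjusted p = 0.045), a call lost without any 1 of the 4 libraries. All 4 genes were separated between the lines at EB8, and 38 of 44 members had a positive change there, with a median of 0.12 against 0.00 for all genes.

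At DIV7, 9 members (20.5%) rose in Puf60.pEx5.HOM and 0 fell, where 9.4% of all genes rose and 6.4% fell. With total scaling 1 member rose, with quantile normalization 3, and without 1 library 2 to 6. Ddx46 alone kept its call without each of the 4 libraries. Besides it, the highest were Snrpa1, with 56.3 and 56.19 CPM in Puf60.pEx5.HOM, against 38.57 and 40.25 in WTprtl (0.50, adjusted p = 0.0181), and Snrpb, with 210.5 and 199.4 CPM in Puf60.pEx5.HOM, against 164.4 and 141.4 in WTprtl (0.42, adjusted p = 0.0118). Snrnp40 had 76.68 and 80.33 CPM in Puf60.pEx5.HOM, against 58.93 and 62.51 in WTprtl (0.37, adjusted p = 0.0167). Sf3b3 had 356.1 and 368.9 CPM in Puf60.pEx5.HOM, against 297.9 and 291.7 in WTprtl (0.30, adjusted p = 0.0193), and so was called at all 3 stages. Prpf38a, Plrg1, Dhx16 and Sf3b2 were at 0.22 to 0.27. For 26 of 44 members both Puf60.pEx5.HOM libraries lay above both WTprtl libraries, against 33.4% of all genes, and for 0 both lay below. The members' median was 0.15, against 0.04 for all genes, and 11 of 48 other spliceosome proteins also rose. Members also leaned upward in Puf60.pEx5.HET at DIV7, against the same WTprtl libraries. There 40 of 44 had a positive change, with a median of 0.11 against 0.04 for all genes. Both its libraries lay above both of WTprtl for 19 members, against 19.3% of all genes, and below for 1, against 14%.

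Markers of other cells and states moved in the same libraries. At DIV7, 10 of 12 pluripotency markers rose in Puf60.pEx5.HOM (sums of 181 to 265 CPM, against 69.3 to 70.8 in WTprtl), 4 of 10 fibroblast or muscle markers fell (288 to 465 CPM, against 645 to 2130) and 4 of 7 astrocyte markers fell (472 to 764 CPM, against 1200 to 1250). The cell cycle list had 0 of 26 genes called there (1310 to 1320 CPM, against 976 to 1190). At EB8, 12 of 15 neuron markers fell in Puf60.pEx5.HOM (1180 to 1340 CPM, against 1780 to 2000 in WTprtl), with cell cycle sums of 5490 to 6160 CPM, against 4240 to 4960. At ESC, 8 of 10 fibroblast or muscle markers fell (43.3 to 72.5 CPM, against 307 to 449). Their part in the members' changes was not tested.

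In Puf60.mEx5.HOM, members were called under the main scaling at EB8 alone, where 6 of 44 (13.6%) fell and 0 rose, and 6.39% of all genes fell and 11.8% rose. Snrpb had 276.6 and 301.7 CPM in Puf60.mEx5.HOM, against 424.6 and 358.3 CPM in WTprtl (-0.43, adjusted p = 0.00846). Eftud2, the U5 GTPase, had 331.3 and 357.1 CPM in Puf60.mEx5.HOM, against 450.5 and 407.4 in WTprtl (-0.32, adjusted p = 0.00798). Neither gene's groups overlapped, and both calls were lost without library A of either line. The authors' deposited table also gave Eftud2 an FDR under the threshold at this stage (log2 fold change -0.40, FDR = 0.041; 7.36% of all genes in that comparison). Sf3b4, Prpf4, Sf3a3 and Sf3a2 were at -0.25 to -0.29, and without 1 library 0 to 5 members were called. In the same libraries 24 of 26 cell cycle genes fell (2700 to 2740 CPM in Puf60.mEx5.HOM, against 4240 to 4960 in WTprtl) and 11 of 15 neuron markers rose (2520 to 2920 CPM, against 1780 to 2000), and their part in the result was not tested. At ESC and DIV7 limma called 0 members in this line, where 0.172 and 0.732% of all genes rose and 0.122 and 0.653% fell. There 4 and 3 members had an unadjusted p under 0.05, and voom weights also called 0. At DIV7, 2 members were called lower with total scaling and 3 with quantile normalization. Uncalled changes leaned the same way, with 38, 38 and 29 of 44 members negative at ESC, EB8 and DIV7. Both libraries lay below both of WTprtl for 20, 22 and 15 members, against 20, 27.9 and 21.2% of all genes. For 3, 1 and 5 members both lay above, against 17.5, 35.4 and 23.3% of all genes.

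In Puf60.pEx5.HET limma called 0 members at ESC and EB8 and 1, Ddx46, at DIV7. The shares of all genes that rose were 0.0359, 0.136 and 0.194% at the 3 stages, and those that fell were 0.0359, 0.187 and 1.02%. At an unadjusted p under 0.05 there were 1, 4 and 5 members, and voom called 0 at each stage. In Rbm38KO, Ddx46 was the 1 member called lower at ESC and at DIV7, where 0.0717 and 0.43% of all genes fell and 0.043 and 0.0861% rose. At EB8 limma called 0 members in Rbm38KO (4 at an unadjusted p under 0.05 and 1 with voom), where 0.0574% of all genes rose and 0.0502% fell.

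Whether the change over a step differed between lines was tested with a moderated F over 8 line-by-step terms. It passed for 3 of 44 members, where it passed for 27.5% of all genes. Ddx46 had an adjusted p of 0.00938, and its EB8 to DIV7 change was 0.31 higher in Puf60.pEx5.HOM than in WTprtl. Eftud2 had an adjusted p of 0.0130. In Puf60.mEx5.HOM its ESC to EB8 change differed from that in WTprtl by -0.40, and its EB8 to DIV7 change by 0.23. Eftud2 had 981.1 and 945.5 CPM in Puf60.mEx5.HOM at ESC, against 920.1 and 902.9 in WTprtl, so the sign of its difference from WTprtl was not the same at ESC and EB8. Aqr had an adjusted p of 0.0185, with an ESC to EB8 change that was 0.43 higher in Puf60.pEx5.HOM than in WTprtl. Aqr had 167.4 and 156.6 CPM in Puf60.pEx5.HOM at EB8, against 137.3 and 144.7 in WTprtl, the opposite side from ESC.

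Alternative splicing of the members' own transcripts was read from inclusion and exclusion reads, as the percent spliced in (PSI). Of 2157 member events in the table, 50 events of 20 genes had at least 10 reads in each library and a mean PSI of 5 to 95, namely 7 cassette exons, 9 retained introns, 16 alternative 3′ sites and 18 alternative 5′ sites. Events were called where the PSI moved by at least 10 points with an adjusted p under 0.05 (limma, Benjamini-Hochberg over 19601 events). In WTprtl 5 of 50 (10%) were called at EB8 against ESC, where 12.4% of all events were, and 4 of 50 (8%) at DIV7 against EB8, where 16.5% were. Events of 1 gene can share reads and are not independent. The members' share was below that of all events at both steps, a difference that was not tested.

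Cassette exons described below, other than the Slu7 exon of the 5′ UTR, are shown as they read in the transcript, so that their effect on the reading frame can be seen. Capitals mark the first stop codon in frame with the upstream coding exon, and sequence without capitals has no such stop. The sequences come from GENCODE M21 transcripts (GRCm38). The Prpf39 exon of 100 nt lies at chr12:65055434-65055533 (plus strand), and the 69-nt exon at chr12:65043543-65043611 (plus). The Prpf3 exon of 96 nt lies at chr3:95849695-95849790 (minus), the Aqr exon of 141 nt at chr2:114158870-114159010 (minus) and the Snrpa1 exon of 80 nt at chr7:66070119-66070198 (plus).
Prpf39 100-nt exon: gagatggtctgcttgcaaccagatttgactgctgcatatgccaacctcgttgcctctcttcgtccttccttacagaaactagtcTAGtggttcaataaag
Prpf39 69-nt exon: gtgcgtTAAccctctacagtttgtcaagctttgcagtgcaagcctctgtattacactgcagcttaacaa
Prpf3 96-nt exon: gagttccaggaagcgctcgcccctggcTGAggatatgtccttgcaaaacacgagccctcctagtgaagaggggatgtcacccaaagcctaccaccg
Aqr 141-nt exon: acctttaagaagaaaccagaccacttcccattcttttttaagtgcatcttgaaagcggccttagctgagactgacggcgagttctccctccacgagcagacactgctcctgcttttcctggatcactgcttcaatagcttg
Snrpa1 80-nt exon: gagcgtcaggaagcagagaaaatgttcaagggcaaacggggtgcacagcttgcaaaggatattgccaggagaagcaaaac
The Prpf39 exons shown and the Prpf3 exon bring a stop codon, at base 85, base 7 and base 28 from their 5′ ends. Another tested Prpf39 exon, of 110 nt at chr12:65043768-65043877, is not shown. It has no such stop, but its length is not a multiple of 3. The Aqr exon has a length that is a multiple of 3 and no stop in frame, and the length of the Snrpa1 exon is not a multiple of 3, so its skipping shifts the frame.

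Inclusion of the Prpf39 exon of 100 nt was 38.3 and 32.7% at DIV7, against 15.2 and 19.3% at EB8, in WTprtl (18.2 points higher, adjusted p = 0.0456), from 51 to 146 reads per library. EB8 and DIV7 did not overlap in WTprtl, but the call was lost without any 1 of the 4 libraries. At ESC this exon was at 21.5 and 23.5% in WTprtl, above EB8. In the edited lines it ranged over 14.3 to 36.1% (ESC), 13.2 to 26% (EB8) and 21.4 to 54.2% (DIV7), so the ranges overlapped there. The Prpf39 69-nt exon was at 27.4 and 24.6% at DIV7, against 16.4 and 10.8% at EB8 (12.4 points, adjusted p = 0.0936), and was not called. The intron of 648 nt that contains it, at chr12:65043358-65044005, was retained in 32.1 and 29.6% at EB8, against 10.5 and 12% at ESC (19.6 points, adjusted p = 0.0493, 26 to 103 reads). That call too was lost without any 1 of the 4 libraries. In Puf60.pEx5.HOM this intron was at 17.1 and 18.9% at EB8, against 7.45 and 25.5% at ESC, so the stages overlapped. They did not overlap in the other edited lines. Prpf39 message had 26.27 and 22.54, 27.68 and 27.05, and 24.61 and 25.39 CPM in WTprtl at ESC, EB8 and DIV7, with no called change at either step under the main scaling. With total scaling it was called higher at EB8 (0.63, adjusted p = 0.0019).

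Of the 9 retained introns tested in WTprtl, 3 were called higher at EB8 against ESC (this Prpf39 intron, Snrnp70 and Sf3b1) and 2 at DIV7 against EB8 (Snrnp70 and Prpf31). The share called among retained introns of all genes is not given here. Retention also rose outside the members. Over 85409 other introns, mean retention in WTprtl was 1.47 and 1.45% at ESC, 1.72 and 1.98% at EB8 and 2.22 and 2.21% at DIV7. The Snrnp70 intron of 2985 nt at chr7:45380819-45383803 was retained in 2.47 and 3.63% at ESC, 13.8 and 20.4% at EB8 and 38.3 and 35.7% at DIV7 in WTprtl, from 879 to 2670 reads per library. The gain was 14 points at the first step (adjusted p = 0.0386) and 19.9 points at the second (adjusted p = 0.0238), and the stages did not overlap. The second call was lost without any 1 of the 4 libraries and the first without 3 of the 4 or with a replicate block of line by letter (adjusted p = 0.0533). The edited lines ranged over 3.02 to 13.5% (ESC), 16.6 to 30.9% (EB8) and 26.2 to 36.7% (DIV7). At ESC the 4 edited B libraries were at 9.47 to 13.5%, against 3.02 to 4.13% in the 4 A libraries, so the letters stood apart there. The Prpf31 intron of 1762 nt, in a gene for a U4/U6 protein, at chr7:3630906-3632667, was retained in 21.2 and 21.3% at DIV7, against 6.03 and 8.92% at EB8, in WTprtl (13.8 points, adjusted p = 3.36e-05, 162 to 475 reads). In the edited lines it was at 22.5 to 31.9% at DIV7, against 5.79 to 10.6% at EB8. The Sf3b1 intron of 1813 nt at chr1:55014563-55016375 was retained in 10.5 and 13.6% at EB8, against 1.39 and 1.97% at ESC (10.4 points, adjusted p = 0.000226, 272 to 761 reads), and the difference was 8.81 points without EB8 library B. At DIV7 it was 10.7 and 12.6%, which overlapped EB8 (-0.416 points, adjusted p = 0.942).

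Over 600 member introns with enough reads, mean retention was 0.39 to 0.673% in the ESC libraries, 0.589 to 0.982% at EB8 and 0.809 to 1.02% at DIV7. Over 85409 other introns it was 1.45 to 2.05, 1.72 to 2.45 and 1.94 to 2.33%. Mean retention of member introns was thus below that of other introns at each stage. In the edited ESC lines the B libraries were at 0.606 to 0.673%, against 0.409 to 0.464% in the A libraries. The medians were near 0 in both sets of introns, and their order varied between DIV7 libraries. In WTprtl library A the median was 0.0501% for member introns, against 0.109% for the others. It was 0.0504%, against 0%, in Puf60.mEx5.HOM library B. The sets were not matched for reads or expression.

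A further exon was called at both steps. The Slu7 exon of 79 nt at chr11:43436354-43436432, in the 5′ UTR of the gene for a second-step factor, was included in 15.6 and 16.2% at ESC, 25.6 and 29% at EB8 and 47.6 and 41.1% at DIV7 in WTprtl, from 253 to 445 reads. The gains were 11.4 points (adjusted p = 0.000921; 9.7 points without EB8 library B) and 17.1 points (adjusted p = 2.24e-05). In the edited lines it was at 16.7 to 22.9, 21.4 to 29.5 and 39.2 to 48.5%, so the stages kept their order in all 5 lines. An alternative 5′ splice site of Snrpc was used in 70.8 and 70.6% at EB8, against 94.3 and 85.4% at ESC (-19.1 points, adjusted p = 0.0412), from 17 to 72 reads, and this call was lost without any 1 of the 4 libraries. The Prpf3 and Snrpa1 exons, chosen after their values were seen, moved by less than 10 points. The Prpf3 exon was at 1.31 and 1.37, 6.94 and 6.24, and 9.68 and 10.2% at ESC, EB8 and DIV7 in WTprtl (5.25 points at EB8, adjusted p = 0.000892). The Snrpa1 exon was at 86.4 and 90.1% at DIV7, against 97.2 and 96.4% at EB8 (-8.58 points, adjusted p = 0.000203).

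**Figure D4:**
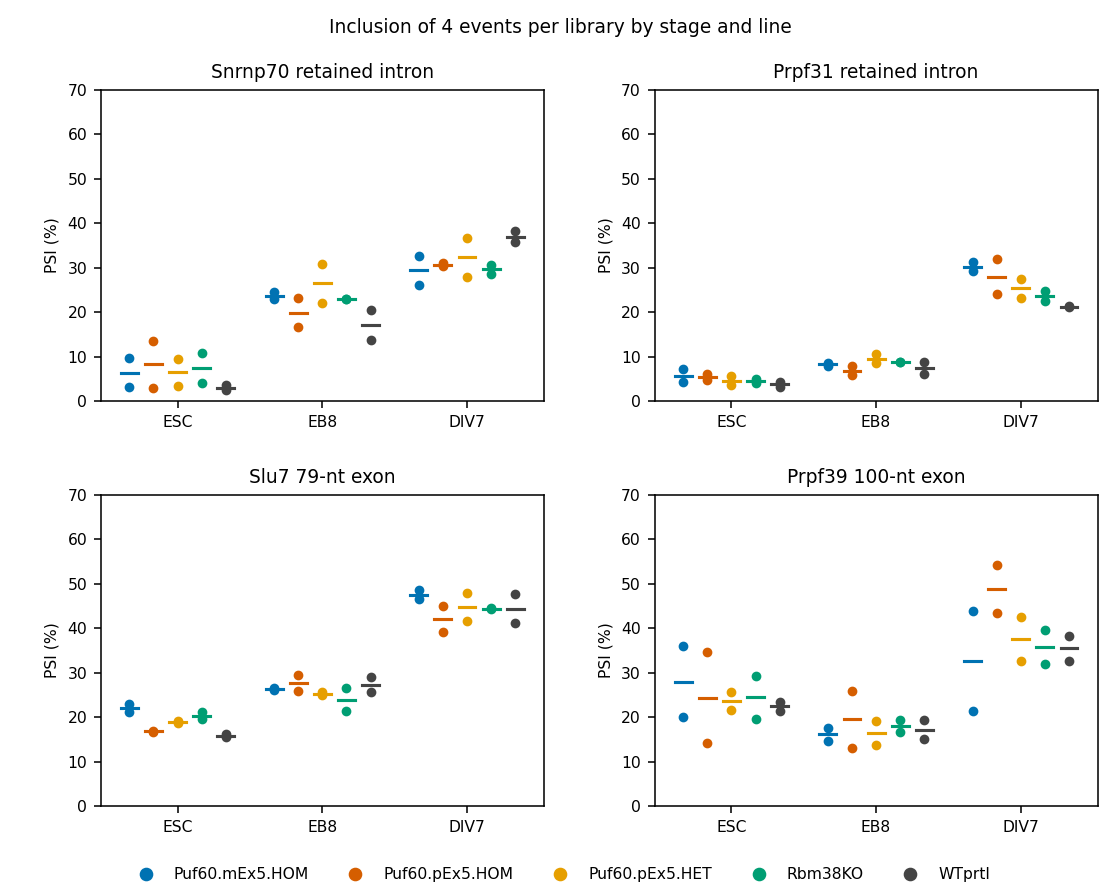
PSI per library, in percent, of the Snrnp70 intron, the Prpf31 intron, the Slu7 exon and the Prpf39 100-nt exon at the 3 stages; dots are libraries and bars are group means, with the edited lines left of WTprtl. The Prpf31 intron and the Slu7 exon are highest at DIV7 in all 5 lines.

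Between lines, member events were called in Puf60.pEx5.HOM at DIV7 alone, where 3 of 50 (6%) were, against 1.87% of all events. The Aqr exon was included in 80.9 and 84.5% in Puf60.pEx5.HOM, against 98.5 and 91.9% in WTprtl (-12.5 points, adjusted p = 0.0255). The Snrpc 5′ site above was used in 40.7 and 39.1% in Puf60.pEx5.HOM, against 85.7 and 58.7% in WTprtl (-32.3 points, adjusted p = 0.0367). A competing Snrpc site was used in 51.8 and 60.9%, against 14.3 and 35.2% (31.6 points, adjusted p = 0.0318), which is the same choice read from its other side. No pair of groups overlapped. Each call was lost without 3 of the 4 libraries. The Aqr exon was at -9.17 points without WTprtl library A (adjusted p = 0.518), -15.8 without WTprtl library B (0.099) and -10.7 without Puf60.pEx5.HOM library A (0.139). The Snrpc site was at -18.8 points without WTprtl library A (adjusted p = 0.716), and its call was also lost without Puf60.pEx5.HOM library A (0.104) or B (0.182). The competing site was at 21.1 points without WTprtl library A (adjusted p = 0.622), with its call lost without Puf60.pEx5.HOM library A (0.0589) or B (0.232) as well. In the other 11 comparisons limma called 0 member events, with 0 to 9 at an unadjusted p under 0.05, and 0 to 3.21% of all events were called. In the edited lines' own steps, 2 to 4 member events were called at EB8 against ESC (10.4 to 16.9% of all events) and 3 to 6 at DIV7 against EB8 (13.4 to 18.7%).

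Since so many members were lower together, their promoters were searched for 5 motifs on both strands, in windows of 300 bases around the RefSeq gene starts (GRCm38.p6). Of the 45 members 36 matched, with 40 promoters, and the ETS motif CCGGAAGT was in 22.5% of them, against 3.89% of 32851 promoters. Sf3b2 is counted there more than once, with windows that nearly coincide. The 32851 promoters were not limited to expressed genes. The 8 genes with the ETS motif were Aqr, Dhx8, Prpf6, Sf3a1, Sf3a3, Sf3b2, Snrnp27 and Snrpe. They include genes that were among the lowest at EB8 (Aqr) and genes that were not called there (Sf3b2, Snrnp27). The E2F motif TTTCCCGC was in 0% of member promoters, against 1.07% of all, the NRF1 motif GCGCATGC in 2.5%, against 2.71%, the YY1 motif AAGATGGC in 2.5%, against 2.75%, and CCAAT in 40%, against 37.4%. As an example, the 100 bases before the start of Sf3b2, at chr19:5295456-5295555 on the minus strand, are shown with the ETS motif in capitals. A match is a description of the letters and no evidence of binding.
Sf3b2: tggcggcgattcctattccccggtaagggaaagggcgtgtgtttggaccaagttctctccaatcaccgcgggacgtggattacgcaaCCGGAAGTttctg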

How the data were processed

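The authors deposited RPKM values per gene and group, with log2 fold changes, p-values and FDR of each edited line against WTprtl, and a vast-tools table of percent spliced in (PSI) with quality strings per library. Salmon 0.14.1, edgeR and mm10 are named in the submitters' processing notes, with no role given. Spliced read counts per gene and library, and inclusion and exclusion counts per event, were summed here from the junction counts in the quality strings of the deposited table, and the event length is in that file's header. The deposited group PSI table was not used, since 2 of its columns carry the same group name. No per-sample column was left unmapped. Of 601 member introns, 601 were introns of GENCODE M21.

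CPM were scaled by median of ratios. Genes that reached 1 CPM in 2 or more libraries entered limma 3.58.1 (R 4.3.3; trend, robust) on log2(CPM + 1), over all 30 libraries with 15 group means and 15 residual degrees of freedom. A fold change on this scale understates that of low genes. Calls use a Benjamini-Hochberg adjusted p under 0.05 over all genes. Splicing used limma on log2((inclusion + 1)/(exclusion + 1)), weighted by reads and a common overdispersion. The fits were tested on simulated data. Replicates differed by more than sampling noise. Alternatives were total and quantile scaling, other pseudocounts, filters and weights, a replicate block and leaving out each library. The letters A and B were not taken as pairs, since no label says what they mark and not every pair of groups deviated together. Members and lists were chosen with earlier results of these data known. Genes named include the called members (the 6 lowest and 4 highest per WTprtl step, all of them per line and stage). Those called by the interaction test, the ends of each role, the RPKM extremes and the called splicing events are named too, plus Puf60, Rbm38 and Snrpn. Sequences come from GENCODE M21 and RefSeq.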

Additional observations from a re-analysis of the deposited data

Results flagged for a closer look

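For 3 members the change over a differentiation step differed between the lines in the moderated F test of limma (Benjamini-Hochberg over all genes, passed by 27.5% of them). Ddx46 had an adjusted p of 0.00938, with step differences of Puf60.pEx5.HOM from WTprtl of 0.19 (ESC to EB8) and 0.31 (EB8 to DIV7). Eftud2 had an adjusted p of 0.01300, with differences of Puf60.mEx5.HOM from WTprtl of -0.40 and 0.23. Aqr had an adjusted p of 0.01850, with differences from WTprtl in the first step of 0.43 in Puf60.pEx5.HOM, 0.25 in Puf60.pEx5.HET and 0.21 in Rbm38KO. Without 1 of the 30 libraries, 2 to 5 members passed.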

How the results depend on the processing

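With 2 libraries per group, calls of single members between lines often rest on 1 library. Without 1 library the members called were 36 to 39 at EB8 against ESC and 34 to 36 at DIV7 against EB8 in WTprtl. At ESC, EB8 and DIV7 they were 0, 0 to 5 and 0 to 1 for Puf60.mEx5.HOM, for Puf60.pEx5.HOM 1 to 3, 2 to 3 and 2 to 6, for Puf60.pEx5.HET 0, 0 and 0 to 1, and for Rbm38KO 0 to 1, 0 and 0 to 1. The interaction test passed for 2 to 5. Splicing events called were 2 to 5 at EB8 against ESC, 2 to 4 at DIV7 against EB8, 0 to 2 for Puf60.pEx5.HOM at DIV7 and 0 elsewhere.

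With total scaling, 2 members were called in Puf60.mEx5.HOM at DIV7, 6 in Puf60.pEx5.HOM at ESC, 1 there at DIV7, 0 in Puf60.pEx5.HET at DIV7, 1 in Rbm38KO at EB8 and 7 by the interaction test. Quantile normalization gave 10 in Puf60.mEx5.HOM at EB8, 3 there at DIV7, 3 in Puf60.pEx5.HOM at DIV7, 0 in Puf60.pEx5.HET at DIV7, 1 in Rbm38KO at EB8 and 9 by the interaction test. Puf60.pEx5.HET at DIV7 had 0 with log2(CPM + 0.25), with at least 5 CPM and with voom, and Rbm38KO had 1 at EB8 and 0 at DIV7 with voom. Among members called in EB8 against ESC, the sign was reversed with total scaling for Snrpb2 (0.01), Prpf38a (0.02), Sf3b1 (0.05) and Dhx38 (0.11). Snrpa stood at 0.00 there. With quantile normalization the sign was reversed for Sf3b1 (0.17), Dhx38 (0.18), Snrnp70 (0.15), Prpf19 (0.04) and Snrpa (0.01). Events called were 3 at EB8 against ESC with a mean PSI of 2 to 98, 2 at DIV7 against EB8 with equal weights, 1 in Puf60.pEx5.HOM at EB8 at 5 points, and 1 there at DIV7 with 20 reads or with equal weights. The cause of these differences was not tested.

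Deviations of libraries with the same letter correlated at over 0.1 in 27 of 105 pairs of groups (-0.26 to 0.62 in all), with a median of 0.30 and 19 of 30 over 0.1 at the same stage, against 5 of 60 where stage and line differed. Not every pair was over 0.1, so the letters were not taken as pairs, but libraries of 1 stage often deviated together. With the replicate block for letter the members called were 37 at EB8 against ESC, 36 at DIV7 against EB8, 0, 6 and 0 in Puf60.mEx5.HOM, 3, 4 and 8 in Puf60.pEx5.HOM at ESC, EB8 and DIV7, and 3 by the interaction test. With a block of line by letter the steps gave 38 and 37, and 4 and 4 splicing events. A replicate block of stage by letter, chosen after seeing the data, gave 39 and 40 at these steps (2 of the 40 higher), 1, 8 and 3 in Puf60.mEx5.HOM, 5, 8 and 15 in Puf60.pEx5.HOM and 1, 1 and 1 in Rbm38KO at ESC, EB8 and DIV7, 12 by the interaction test, and 2 splicing events in Puf60.pEx5.HOM at DIV7, where the first Snrpc site had an adjusted p of 0.0555. For the named genes, 443 of the values under the other settings kept both their sign and their status as called or not. Of the rest, 30 lost the call, 7 gained it and 6 were reversed in sign. The fits without 1 library, in which more of the named values lost their call, are not in these counts.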
